A study of Rattus norvegicus with 4 samples.

Results

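The insulin-like growth factors, their receptors and their binding proteins were followed in rat colon as a family of 10 genes: the ligands Igf1 and Igf2, the receptors Igf1r and Igf2r, and the binding proteins Igfbp1 to Igfbp6. A gene was a member if its symbol stood on this list and a RefSeq transcript of it had a value on all 4 arrays. All 10 were measured, of 6968 named genes with a measured transcript. Igf1 had 3 measured transcripts and each of the other 9 genes had 1, and where there were several the transcript with the highest mean was used. Colon RNA of 4 male Sprague Dawley rats, 1 array per rat, was hybridized to one-color NimbleGen arrays: 2 rats of the control group and 2 of the MSCT group. MSCT rats had colitis from TNBS (2,4,6-trinitrobenzene sulfonic acid, a chemical instilled into the colon) and received GFP-labeled mesenchymal stem cells (MSCs) through the tail vein. The study's text calls the controls IBD rats without MSCs, whereas the sample descriptions call them normal rats, so that a difference between the groups may hold the colitis, the transplantation or both, and these cannot be told apart here. No age is given, the labels give no day, and the study's text gives different days for the chips in different places. The tissue was whole colon from the region of the lesion, and in such bulk RNA fewer cells of a type and less RNA per cell cannot be told apart.

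Igf1 and Igf2 are small secreted proteins related to insulin. Both signal to growth and survival through Igf1r, a receptor tyrosine kinase that acts through insulin receptor substrates, phosphoinositide 3-kinase, Akt and the MAP kinases, while Igf2r removes Igf2 from the surface and sorts lysosomal enzymes. The binding proteins carry the ligands, hold them away from the receptor or bring them to it, and are cut by proteases that set the ligands free. In the gut, Igf1 comes largely from cells of the connective tissue and muscle and from macrophages, and acts on epithelium and muscle.

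The deposited value is 1 linear intensity per transcript and array, of which 18350 rows were measured. Array medians lay between 848 and 893. The log2 values of the 2 control arrays correlated with r = 0.953 across rows and those of the 2 MSCT arrays with r = 0.964, while control replicate 2 correlated more closely with MSCT replicate 2 (r = 0.959) than with the other control array. Epithelial markers (Epcam, Cdh1, Krt8, Lgals4) and smooth muscle markers (Acta2, Tagln, Cnn1, Des) were among the brightest rows, as the labelled tissue would hold. Between 98.6% (Epcam) and 99.9% (Acta2) of rows were dimmer than they were. Cdx2 was the dimmest measured epithelial marker, with 63.9% of rows dimmer. Groups were compared on log2 values with limma, which fits a linear model to each row and borrows variance across rows. A difference is always MSCT minus control on the log2 scale. The study's screen was a p under 0.05 and more than 2-fold, and it reported 388 genes. Here the same limits were put on the unadjusted limma p, which 850 rows passed, against 388 rows with the p of the methods' t-test. "Rose" and "fell" are used below only of genes past the screen by limma, and are not calls of the study. After Benjamini-Hochberg adjustment over all rows, 0 rows passed an adjusted p of 0.05 by limma, with 2196 rows at an unadjusted p under 0.05, and 0 rows passed by the methods' t-test, with 1772. With 2 arrays in each group, the smallest two-sided p of an exact permutation test is 0.333. Intensities of different genes come from different probes and are not compared with each other.

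Of the 10 family genes, Igf1 rose in the MSCT group and Igfbp5 and Igf2 fell. These 3 genes passed the screen by limma, which 4.63% of all rows passed (2.12% higher and 2.51% lower in the MSCT group). Igf2r and Igfbp4 were higher at an unadjusted p under 0.05 but by less than 2-fold. This made 5 of 10 genes at that limit, 3 higher and 2 lower, against 12.0% of all rows (4.80% higher and 7.17% lower). In 6 of the 10 genes, 3 higher (Igf1, Igf2r, Igfbp4) and 3 lower (Igf2, Igfbp2, Igfbp5), the groups lay apart with no overlap, against 45.8% of all rows (21.3% higher and 24.5% lower). The median size of a difference, whatever its sign, was 0.71 over the family and 0.28 over all rows, and the median difference was 0.24 and -0.02. Over all named genes the median size was 0.27 and the median difference 0.05. By limma 0 of the 10 genes had an adjusted p under 0.05 (the smallest was 0.257; 0.00% of rows) with 5 unadjusted, and by the methods' t-test 0, with 1 unadjusted (9.66% of rows) that also passed the screen (2.11% of rows). Under 2 other settings of limma Igfbp5 and Igf1 had an adjusted p under 0.05: without the dimmest 50% of rows (2.69% of rows) and with the trend and robust options of eBayes used together (2.11% of rows). Igf1 passed that filter on dim rows only through the MSCT arrays. Its log2 mean was 9.11 in controls, under the filter's limit of 9.76, and 10.60 after MSCT, so its adjusted p there is no separate support. With control replicate 1, control replicate 2, MSCT replicate 1 or MSCT replicate 2 left out, 4, 3, 2 and 3 family genes passed the screen, against 5.09%, 8.53%, 5.68% and 8.19% of rows. An unadjusted p under 0.05 was then found for 4, 4, 2 and 3 genes, against 9.60%, 14.6%, 7.24% and 10.0% of rows, and the groups lay apart in 10, 8, 7 and 7 genes, against 74.5%, 77.6%, 69.2% and 70.3% of rows.

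**Figure D1:**
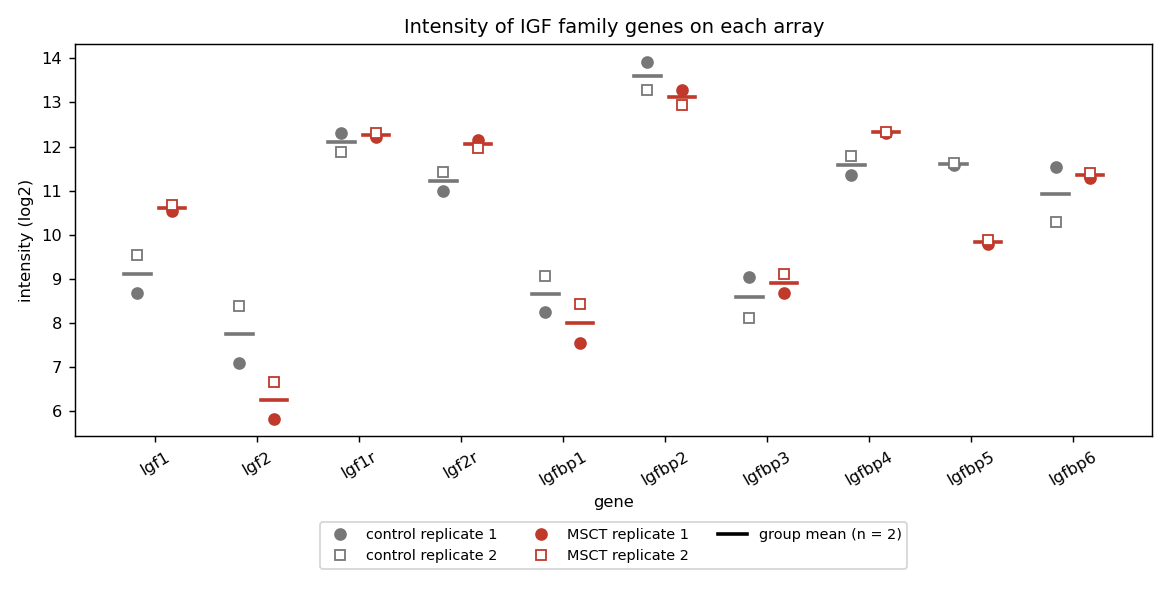
Intensity on the log2 scale (y axis) of each family gene (x axis) on each of the 4 arrays, with control arrays in gray, MSCT arrays in red, replicate 1 filled, replicate 2 open and the group mean as a bar. The arrays of the 2 groups lie apart in Igf1, Igf2, Igf2r, Igfbp2, Igfbp4 and Igfbp5, with the widest gap in Igfbp5 and almost none in Igfbp2.

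Igf1 (NM_001082478), the ligand that mediates much of the action of growth hormone, had an intensity of 411 and 743 in the controls (replicate 1, then replicate 2, here and below) against 1485 and 1623 in the MSCT rats. Both MSCT arrays lay above both control arrays, and the nearest arrays of the groups were 1.00 apart on the log2 scale. The log2 mean went from 9.11 ± 0.60 in controls to 10.60 ± 0.09 after MSCT (SD, n = 2 each), a difference of 1.49 (standard error 0.34) or 2.81-fold. The limma p was 0.00942 (adjusted p = 0.307). With each array left out in turn Igf1 passed the screen every time, with 1.06 when control replicate 1 and 1.92 when control replicate 2 was left out. By the methods' t-test, which gave a p of 0.0749, it did not pass. The replicate SD of Igf1, 0.43, was larger than the median of rows of like brightness (0.19), and it came almost wholly from the control arrays.

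The other measured Igf1 transcripts lay the same way. The choice of NM_001082478 was a near tie, with 51.7% of rows dimmer against 51.5% for NM_178866. It was settled by the MSCT arrays, where the log2 means were 10.60 and 10.37, as NM_178866 was the brighter in controls (9.32 against 9.11). NM_178866 had a limma adjusted p of 0.108 without the dimmest 50% of rows and of 0.131 with the trend and robust options. NM_178866 had intensities of 495 and 825 in the controls against 1540 and 1135 in the MSCT rats, a difference of 1.05 (standard error 0.34; limma adjusted p = 0.370). This difference was 0.68 without control replicate 1 and 1.42 without control replicate 2. It was 0.83 without MSCT replicate 1 and 1.27 without MSCT replicate 2, so that it did not stay over 2-fold. NM_001082477 had 322 and 852 in the controls against 914 and 1313 in the MSCT rats, a difference of 1.06 (standard error 0.53; limma adjusted p = 0.509), and did not pass the screen. Control replicate 2 of this transcript came within 0.10 of the nearest MSCT array, and with an array left out its difference ranged from 0.36 to 1.77. The transcripts belong to 1 gene, the deposited table does not show how far their probes overlap, and they are no independent measurements. With the mean of the 3 in place of the brightest, Igf1 was still past the screen.

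Igf2 (NM_031511), the other ligand and a growth factor chiefly of fetal tissue, was dim, with 5.05% of rows dimmer. It measured 138 and 337 in the controls against 57.2 and 102 in the MSCT rats, so that the groups did not overlap but both were spread widely. The log2 mean went from 7.75 ± 0.91 in controls to 6.26 ± 0.59 after MSCT (SD, n = 2 each). The difference of -1.50 (standard error 0.55) had a 95% interval from -2.95 to -0.04 and a limma p of 0.0461 (adjusted p = 0.412). The call rested on single arrays. Without control replicate 2 the difference was -0.85 and without MSCT replicate 1 it was -1.08, and neither passed the screen (unadjusted limma p-values of 0.152 and 0.146). The methods' t-test gave a p of 0.191, and Igf2 is left out where the dimmest 25% of rows are removed.

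Of the receptors, Igf2r was higher in the MSCT group and Igf1r was not distinguished. Igf1r (NM_052807), the receptor that signals for both ligands, had intensities of 5089 and 3742 in the controls against 4766 and 5056 in the MSCT rats. The MSCT arrays lay within the range of the control arrays. The difference was 0.17 (standard error 0.24, limma adjusted p = 0.793), with a 95% interval from -0.46 to 0.80, and its sign turned without control replicate 2 (-0.05). Igf2r (NM_012756), also the cation-independent mannose 6-phosphate receptor, had 2044 and 2744 in the controls against 4545 and 4006 in the MSCT rats. All MSCT values were above the control values, with a gap of 0.55 between the nearest. The difference was 0.85 (standard error 0.24) or 1.80-fold, with a limma p of 0.0194 (adjusted p = 0.338). It passed the screen without control replicate 2 (1.06), but its unadjusted limma p-values were 0.0648 without control replicate 1, 0.0940 without MSCT replicate 1 and 0.0519 without MSCT replicate 2. M6pr, the smaller mannose 6-phosphate receptor, differed by 0.21 (standard error 0.20) and Insr, the insulin receptor, by -0.48 (standard error 0.26), with limma adjusted p-values of 0.713 and 0.527.

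Of the 6 binding proteins, Igfbp5 fell, Igfbp4 was higher at an unadjusted p under 0.05, and 4 did not pass that limit. Igfbp5 (NM_012817), a binding protein that sticks to extracellular matrix and is made by smooth muscle and fibroblasts, had intensities of 3081 and 3178 in the controls against 890 and 948 in the MSCT rats. The replicates lay close together in both groups, and the gap between the nearest arrays of the groups was 1.70. The log2 mean went from 11.61 ± 0.03 to 9.84 ± 0.06 (SD, n = 2 each), a difference of -1.77 (standard error 0.18) or 3.41-fold lower in the MSCT group. Its limma p of 3.78e-04 (adjusted p = 0.257) was the 22nd smallest of 18350 rows, and the size of its difference was in place 132. Igfbp5 was the only family gene whose replicate SD (0.05) was under the median of rows of like brightness (0.19), and the only one past the screen by the methods' t-test (adjusted p = 0.384 by that test). With each array left out the difference stayed between -1.81 and -1.72.

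Igfbp4 (NM_001004274), a binding protein that mostly holds the ligands back and is cut by pappalysin, had intensities of 2612 and 3541 in the controls against 5066 and 5178 in the MSCT rats. The MSCT replicates were almost equal and lay above both control arrays. The difference was 0.75 (standard error 0.23) or 1.68-fold, with a limma p of 0.0275 (adjusted p = 0.357). Without control replicate 1 it was 0.53, and its limma p-values were 0.0831 without that array, 0.0929 without MSCT replicate 1 and 0.103 without MSCT replicate 2.

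Igfbp2 (NM_013122), an abundant binding protein of epithelia that prefers Igf2, had 15490 and 9964 in the controls against 9941 and 7906 in the MSCT rats. The groups did not overlap, but control replicate 2 and MSCT replicate 1 were only 0.003 apart on the log2 scale, and they overlapped after quantile normalization. The difference was -0.49 (standard error 0.30, limma adjusted p = 0.569), with a 95% interval from -1.29 to 0.31. Igfbp1 (NM_013144), known from liver as a gene that insulin represses, had 306 and 538 in the controls against 189 and 347 in the MSCT rats. The groups overlapped, and the difference of -0.67 (standard error 0.44, limma adjusted p = 0.591) had a 95% interval from -1.84 to 0.51.

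Igfbp3 (NM_012588), the main carrier of the ligands in blood, had 529 and 279 in the controls against 412 and 557 in the MSCT rats. Its groups overlapped, and the difference of 0.32 (standard error 0.39, limma adjusted p = 0.762) became -0.14 without control replicate 2. Igfbp6 (NM_013104), which binds Igf2 more tightly than Igf1, had 2993 and 1244 in the controls against 2506 and 2712 in the MSCT rats. The MSCT arrays lay between the control arrays, and the difference of 0.43 (standard error 0.46, limma adjusted p = 0.731) was 1.07 without control replicate 1, past the screen, and -0.20 without control replicate 2.

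**Figure D2:**
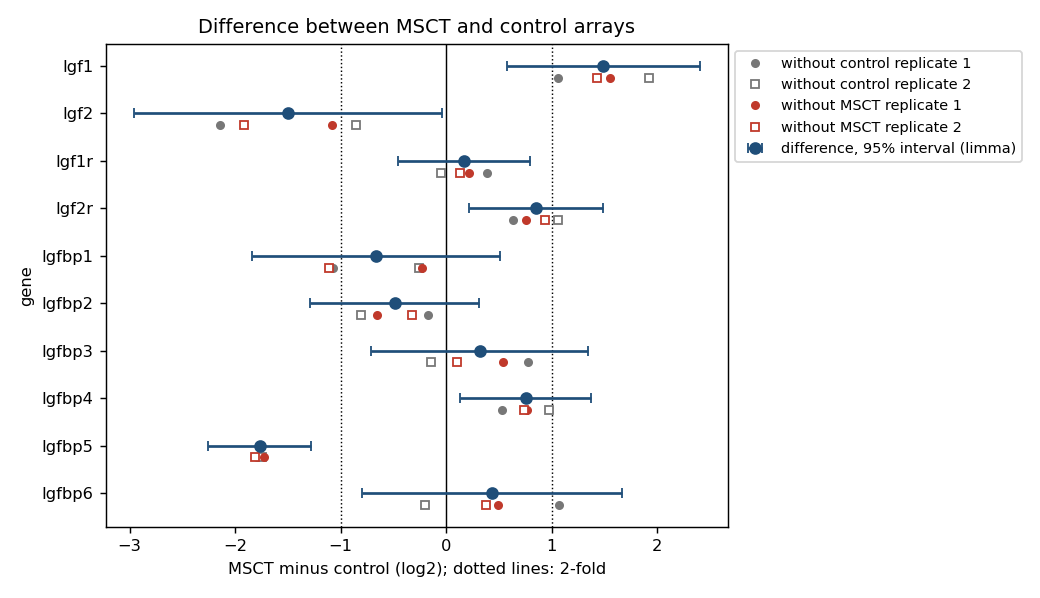
Difference between the groups for each family gene (x axis, MSCT minus control, log2) with the 95% interval of limma as a bar, and below it the difference with each array left out. Igfbp5 keeps its value of -1.77 with any array left out, Igf2 moves between -2.14 and -0.85, and Igf1r, Igfbp3 and Igfbp6 cross 0.

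In 8 of the 10 genes the control arrays were farther apart than the MSCT arrays, the exceptions being Igfbp1 and Igfbp5, as they were in 56.9% of all rows. In 2 genes (Igf2 and Igfbp6) the control arrays were more than 2-fold apart, which held for 8.73% of all rows. The MSCT arrays were that far apart in 0 genes of the family and in 7.49% of all rows. Control replicate 2 was higher than control replicate 1 in 6 genes and lower in 4. In Igf1, Igf2r, Igfbp2 and Igfbp4 it lay between control replicate 1 and both MSCT arrays. The sign of the difference stayed the same with any array left out in 7 genes. In 6 of these the groups did not overlap, so that the sign could not turn, and the other was Igfbp1. In Igfbp5 and in the transcript used for Igf1 the difference stayed over 2-fold each time.

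Some members lie side by side in the genome. In the RefSeq gene table Igfbp2 and Igfbp5 are neighbors on chromosome 9, and Igfbp1 and Igfbp3 are neighbors on chromosome 14, with 0 protein-coding genes between them in each pair. Igfbp5 had a difference of -1.77 and Igfbp2 of -0.49, of which only that of Igfbp5 passed the screen. Igfbp1 and Igfbp3 had differences of -0.67 and 0.32, with overlapping groups in both.

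The 250 bases before the start were read for the family from the RefSeq promoter table (GRCr8), and those of the binding protein that fell and of the receptor and binding protein that were higher at an unadjusted p under 0.05 are shown to set their make-up side by side. They are Igf2r at chr1:50526628-50526877 (plus strand), Igfbp4 at chr10:84491221-84491470 (plus strand) and Igfbp5 at chr9:81914188-81914437 (minus strand), each written 5′ to 3′ with the start just after the last base. Capitals mark matches, on either strand, to the TATA box, written TATAAA, to the GC box of Sp1, written GGGCGG, and to the E-box, written CACGTG, and no matches overlap.
Igf2r: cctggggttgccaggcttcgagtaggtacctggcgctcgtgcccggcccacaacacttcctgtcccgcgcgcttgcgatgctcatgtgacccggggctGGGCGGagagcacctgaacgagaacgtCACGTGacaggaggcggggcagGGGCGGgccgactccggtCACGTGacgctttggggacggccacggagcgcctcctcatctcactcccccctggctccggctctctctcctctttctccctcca
Igfbp4: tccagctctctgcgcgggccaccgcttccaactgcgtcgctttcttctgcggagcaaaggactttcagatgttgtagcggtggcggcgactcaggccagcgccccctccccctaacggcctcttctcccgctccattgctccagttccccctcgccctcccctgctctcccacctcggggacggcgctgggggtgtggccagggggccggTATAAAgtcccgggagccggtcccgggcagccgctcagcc
Igfbp5: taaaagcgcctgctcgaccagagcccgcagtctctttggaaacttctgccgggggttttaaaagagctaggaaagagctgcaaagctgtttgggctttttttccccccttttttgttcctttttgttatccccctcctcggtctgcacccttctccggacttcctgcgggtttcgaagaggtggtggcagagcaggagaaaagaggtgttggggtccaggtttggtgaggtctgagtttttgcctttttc

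The sequence of Igf2r held CACGTG 2 times, 125 and 85 bases before the start, and GGGCGG 2 times, 152 and 103 bases before it. Among all promoters of that table, 5.59% of 33469 held CACGTG and 30.5% held GGGCGG in these 250 bases. Igfbp4 held TATAAA 40 bases before the start, as 12.9% of promoters did anywhere in the window, and Igfbp5 held none of these letters. The GC content was 68.0% in Igf2r, 68.8% in Igfbp4 and 51.6% in Igfbp5, with 23, 21 and 8 CpG dinucleotides. The letters CAAAACA, the core of insulin response sequences, were found in the windows of Igf1 and Igfbp1 and in 5.46% of all promoters. A match describes these letters only, and no binding was measured.

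For the 3 genes past the screen, the named genes with the most similar pattern were found as those with the smallest Euclidean distance between log2 values over the 4 arrays, each centered on its own mean, among 6967 other named genes. For Igfbp5 these were Bmal1 (distance 0.15), a transcription factor of the circadian clock, Arrb1 (0.21), which encodes β-arrestin 1, Nmu (0.24), a neuropeptide, Mamstr (0.25), a cofactor of muscle transcription, and Cdca3 (0.32). Arrb1 had intensities of 2382 and 2532 in the controls against 820 and 847 in the MSCT rats. Bmal1 had 5264 and 4968 in the controls against 1440 and 1400 in the MSCT rats. For Igf1 they were Decr1 (0.04), an enzyme of fatty acid oxidation, Slc39a8 (0.10), a zinc transporter, Nherf2 (0.15), Hyou1 (0.17), a chaperone of the endoplasmic reticulum, and Galnt3 (0.18), a mucin glycosyltransferase. For Igf2 they were Knstrn (0.35), Gabra3 (0.38), Pclaf (0.49), Ngfr (0.51) and Rem2 (0.51), so that no named gene followed Igf2 as closely as the genes named for Igf1. With 4 arrays such a likeness is a description of these arrays.

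**Figure D3:**
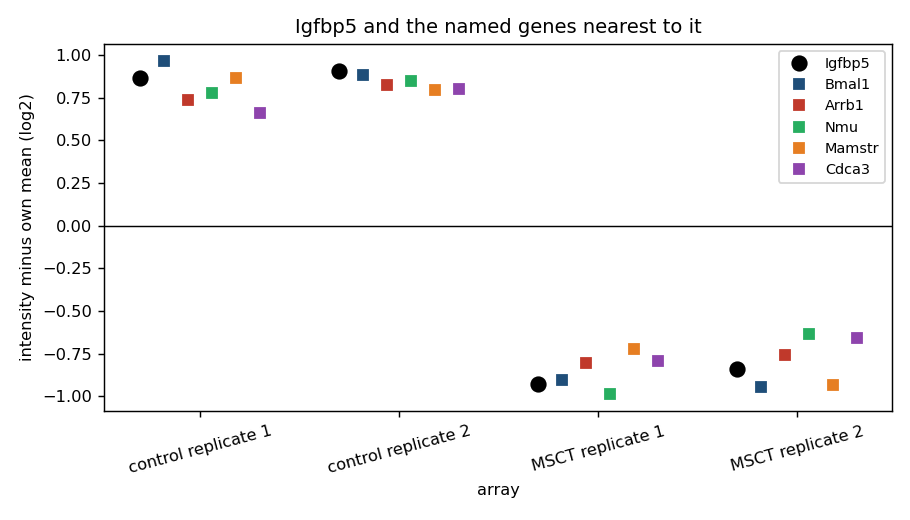
Intensity minus the gene's own mean (y axis, log2) on each array (x axis) for Igfbp5, shown as black circles, and the 5 named genes nearest to it, shown as colored squares. All 6 genes lie above 0 on both control arrays and below 0 on both MSCT arrays.

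Of 130 other genes listed for the pathway around the family, 86 were measured, 12 were blank on all arrays and 32 had no row by name. By limma 7 were higher and 6 lower at an unadjusted p under 0.05, together 15.1% of the measured genes against 12.0% of all rows, and 7 passed the screen (8.14% against 4.63%), 6 higher and 1 lower. Their median difference was 0.09, against -0.02 over all rows and 0.05 over all named genes. After adjustment 0 of them passed by limma (smallest 0.257).

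Genes of the proteases that cut binding proteins, and of their inhibitors, held 5 of these 7. All 5 rose, and the other 8 of the 13 measured genes did not pass an unadjusted p of 0.05. Htra1, a secreted serine protease that cuts binding proteins, had intensities of 2220 and 2622 in the controls against 4427 and 6500 in the MSCT rats, a difference of 1.15 (standard error 0.27; limma adjusted p = 0.311). Plau, urokinase, had 217 and 140 in the controls against 362 and 738 in the MSCT rats, a difference of 1.57 (standard error 0.44; limma adjusted p = 0.338). Mmp2, a gelatinase, differed by 1.08 (standard error 0.31), and Pcsk6, a proprotein convertase, by 1.02 (standard error 0.30). Htra1, Plau, Mmp2 and Pcsk6 each passed the screen in 2 of the 4 fits that left out an array. Timp1, Plg, Plat, Adam9, Ctsd, Furin, Stc1 and Stc2 had differences between -0.56 and 0.45. Pappa and Pappa2, the pappalysins that cut Igfbp4 and Igfbp5, were on the list but had no measured row.

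Downstream of the receptor, of 13 measured substrates and adaptors 8 were lower and 5 higher, with 2, both lower, at an unadjusted p under 0.05. Arrb1 fell by 1.56 (log2, standard error 0.18; limma adjusted p = 0.257), and did so past the screen with each array left out. Irs1, the main docking protein of the receptor, had intensities of 763 and 485 in the controls against 308 and 385 in the MSCT rats, a difference of -0.82 (standard error 0.30; limma adjusted p = 0.413). The 26 genes of the PI3K, Akt and mTOR list stayed between -0.53 and 0.70, with 1 at an unadjusted p under 0.05: Eif4ebp1, the translation repressor that mTOR phosphorylates, with 2797 and 2791 in the controls, 4180 and 4958 in the MSCT rats and a difference of 0.70 (standard error 0.20; limma adjusted p = 0.338). Akt1, Akt2 and Mtor had differences of -0.13, -0.27 and -0.23.

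Among 14 genes of Ras and the MAP kinases, Dusp6, a phosphatase that switches off ERK, rose by 1.08 (standard error 0.25; limma adjusted p = 0.307). Its intensities were 1673 and 1862 in the controls against 4409 and 3164 in the MSCT rats. Jun and Fos, the AP-1 transcription factors, had differences of -0.83 and -0.52 (standard errors 0.18 and 0.19), with unadjusted limma p-values of 0.00808 and 0.0441. The kinases Mapk3, Map2k1 and Map2k2 lay between -0.07 and 0.26.

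On the growth hormone axis 1 of 11 measured genes was past an unadjusted p of 0.05: Sstr1, a somatostatin receptor, with a difference of -0.92 (standard error 0.24; limma adjusted p = 0.327). Ghr, the growth hormone receptor, differed by 0.55 (standard error 0.39, limma adjusted p = 0.613) and Socs2, which growth hormone induces, by 0.43 (standard error 0.24, limma adjusted p = 0.541). Gh1, Ghrh, Ghrhr, Ghsr and Ghrl were blank on all arrays. Of 6 measured further insulin and IGF binders 0 passed by limma at an unadjusted p under 0.05. Igfbp7, a related protein of low affinity, differed by 0.17 (standard error 0.23), and Igfals, the acid-labile subunit that holds Igfbp3 in blood, by 1.29 with a standard error of 1.07. Plagl1, an imprinted transcription factor, was lower, with 1367 and 1177 in the controls, 511 and 868 in the MSCT rats and a difference of -0.93 (standard error 0.32; limma adjusted p = 0.393).

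**Figure D4:**
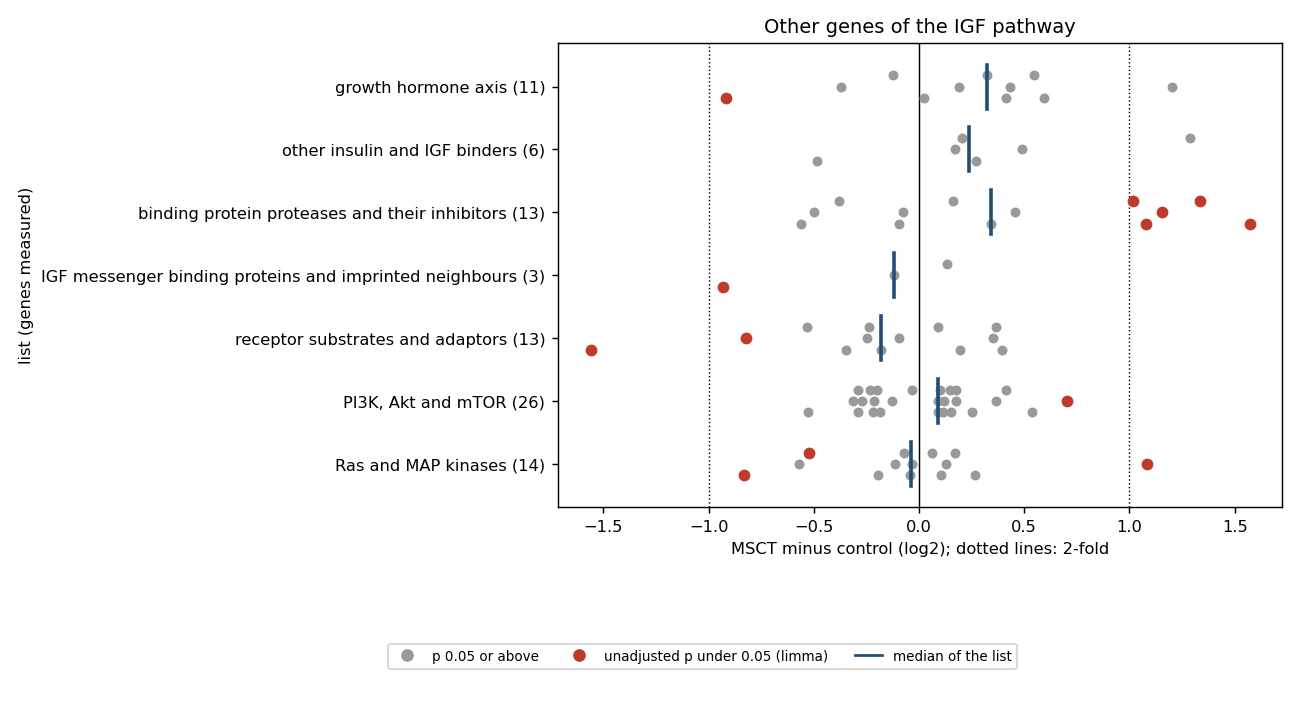
Difference between the groups (x axis, MSCT minus control, log2) of each measured gene of the pathway lists (y axis, number measured in parentheses), with genes at an unadjusted limma p under 0.05 in red and the list's median as a blue bar. The red genes of the protease list all lie above 1, and the genes of the PI3K, Akt and mTOR list stay between -0.53 and 0.70.

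Marker genes of cell types that the tissue holds moved with the groups in part. Of 8 measured macrophage markers 7 were higher in the MSCT group, with a median difference of 0.94 over the list. At an unadjusted p under 0.05 by limma 6 of the 8 were higher, against 4.80% of all rows. The summed intensity of the 8 was 14268 and 15551 in the controls against 19498 and 22181 in the MSCT rats. C1qb had the largest difference (1.61) and Cd14 the smallest (-0.04). Such sums, here and below, weigh bright probes most. Cd14 alone gave 9308 and 10814 in the controls against 8986 and 10578 in the MSCT rats. Igf1, which macrophages make, rose on the same arrays, and the part of macrophages in its rise was not tested. Of 8 fibroblast markers 7 were higher, 2 of them (Col1a2 and Vim) at an unadjusted p under 0.05, against 4.80% of all rows. The list had a median of 0.46 and summed intensities of 62816 and 46616 in the controls against 69618 and 75468 in the MSCT rats. All 4 endothelial markers were higher, with a median of 0.33 and 1 (Eng) at an unadjusted p under 0.05, against the same 4.80% of all rows. The 3 measured T and B lymphocyte markers lay between 0.01 and 0.37, and Cd3d, Cd2, Cd5 and Cd79b were blank on all arrays.

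Beside the fall of Igfbp5, the 5 measured smooth muscle markers (Acta2, Tagln, Cnn1, Des and Actg2) had differences between -0.04 and 0.08. Their summed intensity was 171485 and 141287 in the controls against 159204 and 154976 in the MSCT rats, with the MSCT arrays inside the range of the controls. Of 7 enteric neuron and glia markers 5 were lower, 2 of them (Elavl4 and Uchl1) at an unadjusted limma p under 0.05, as 7.17% of all rows were. The median of the list was -0.54, and the summed intensities were 9021 and 8930 in the controls against 6577 and 6959 in the MSCT rats. The part of smooth muscle or of enteric neurons and glia in the fall of Igfbp5 was not tested. Epithelial markers (8 measured, between -0.05 and 0.48) and colonocyte markers (6 measured, between -0.58 and 0.68) held 0 genes at an unadjusted p under 0.05 by limma, and their medians were 0.18 and 0.19.

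**Figure D5:**
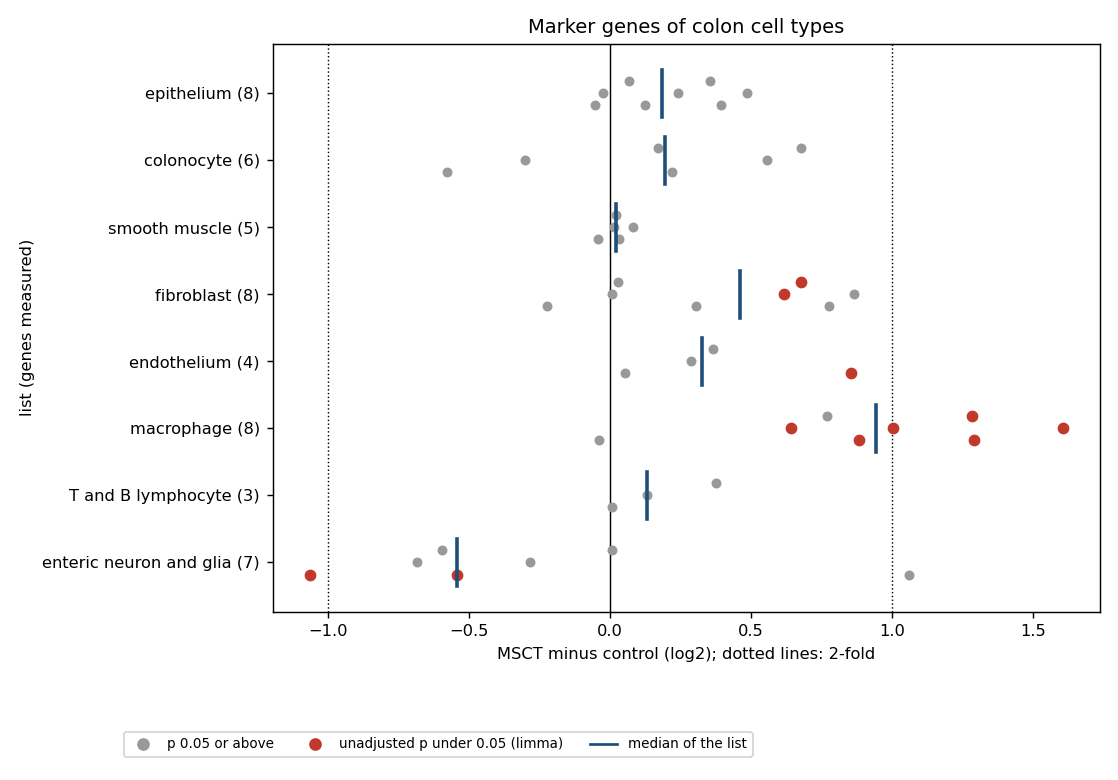
Difference between the groups (x axis, MSCT minus control, log2) of each measured marker gene by cell type (y axis, number measured in parentheses), with genes at an unadjusted limma p under 0.05 in red and the list's median as a blue bar. Macrophage markers center on 0.94, smooth muscle markers lie within 0.08 of 0, and enteric neuron and glia markers center on -0.54.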

How the data were processed

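The authors labeled colon cDNA with Cy3, read each one-color array on a GenePix scanner, used NimbleScan for extraction and deposited 1 linear intensity per RefSeq transcript and array. The submitters' processing notes name RMA. How probes were combined and why 8070 of 26420 rows are blank on all 4 arrays are not given in the sources used here. Precision is limited by the number of arrays. Intensities were taken to log2 with no pseudocount, further scaling or filter. Groups came from the sample titles, and the number of value columns with no sample was 0. MSCT was compared with control over 18350 rows by lmFit and eBayes of limma 3.58.1 (R 4.3.3), at default settings. Gene symbols came from RefSeq's table for GRCr8, which served for names and neighbors alone (7010 of 7292 measured NM and 58 of 11058 XM rows). The fit and the methods' t-test (one-way analysis of variance for 2 groups) were tested on simulated data. The family, the pathway and marker lists and the tests were chosen with earlier results of these data known. Named are all members, pathway genes past the screen or, up to 3 per list and direction, at an unadjusted p under 0.05, and the 5 nearest patterns. Other pathway and marker genes were named after their values were seen. Some genes of the lists are counted but not reported here by name. Alternatives were 2 scalings, 2 filters on dim rows, another variance model, the methods' t-test, a replicate block, a pseudocount of 64, the mean of a gene's rows and leaving out each array. Tables and figures were made in Python 3.11.15 (pandas 2.3.3, matplotlib 3.10.9).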

Additional observations from a re-analysis of the deposited data

How the results depend on the processing

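Of 126 differences of the family genes under 13 alternatives, 117 kept their direction and their side of the screen, 4 lost it, 2 gained it and 3 changed sign. The filters on dim rows, the other variance model, the methods' t-test and the replicate block leave each difference as it is. Its direction could therefore not change under them, and the mean of a gene's rows alters Igf1 alone. Leaving out an array could turn the sign only in the 4 genes whose groups overlap. Without control replicate 2 the differences of Igf1r, Igfbp3 and Igfbp6 were -0.052, -0.14 and -0.20, and over the 4 arrays left out they ranged from -0.052 to 0.39, from -0.14 to 0.78 and from -0.20 to 1.07. By the methods' t-test, which takes each row's variance alone, 388 rows in place of 850, 1 family gene in place of 3 and 2 pathway genes in place of 7 passed the screen, and 1 family gene in place of 5 had an unadjusted p under 0.05. Without the dimmest 50% of rows, which leaves out Igf2, Igfbp1 and Igfbp3, the screen took 251 rows and 4 pathway genes, and 2 family genes passed an adjusted p of 0.05 by limma: Igfbp5 (0.00724, with 0.00156 to 0.633 over all alternatives) and Igf1 (0.0487, with 0.0392 to 0.657). Igf1 was kept by this filter only through its MSCT arrays, as its control mean lay under the limit. Under eBayes with its trend and robust options 2 family genes also passed (Igfbp5 and Igf1), with 2.11% of all rows. With each array left out, from 934 to 1565 rows passed the screen, as did from 2 to 4 family genes and from 6 to 9 pathway genes, from 2 to 4 family genes and from 6 to 11 pathway genes had an unadjusted p under 0.05, and from 7 to 10 family genes had groups that did not overlap, where 69.2% to 77.6% of rows did. The replicate numbers do not pair the rats by the labels, and the differences between replicates 1 and 2 of the groups correlated with r = 0.23 across rows. With a replicate block, 971 rows and 3 family genes passed the screen, 6 family genes had an unadjusted p under 0.05 and 0 passed an adjusted p of 0.05 by limma. The causes of these changes were not tested. With 2 arrays per group, a difference near the replicate spread of dim rows (median SD 0.47 in the dimmest 25%, 0.14 in the brightest 25%) cannot be placed on either side of 0.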
